A study of Rattus norvegicus with 12 samples.

Results

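Wnt ligands, their receptors and their modulators were followed in the ovaries of rats given letrozole and of rats that then received mogroside V. The genes were chosen by name alone, as every Wnt, Frizzled (Fzd), secreted frizzled-related protein (Sfrp), Dickkopf (Dkk), R-spondin (Rspo), Lgr4 to Lgr6, Lrp5, Lrp6, Ctnnb1, Axin1 or Axin2 entry in the deposited table. The table held 44 such genes among 19730, namely 17 ligands, 11 receptors, 4 R-spondins, 3 R-spondin receptors, 7 secreted antagonists and 2 intracellular members. No entry was named Axin1, and genes of these families not listed under such a name are not among the 44. The rats were wild type Sprague Dawley females at post natal week 15, with 4 rats and 4 libraries in each of the 3 groups. Rats of the Control group were untreated and, by the study's methods, ate standard pellets. The PCOS group, a model of polycystic ovary syndrome, received letrozole, an aromatase inhibitor that blocks estrogen synthesis, for 30 days, and by the study's methods a high-fat diet over the same days. The PCOS-MV group was induced in the same way and was then given mogroside V, a sweet triterpene glycoside from the fruit of Siraitia grosvenorii, by oral gavage for 30 days. By the study's methods all rats were killed at the end of the treatment period. The PCOS ovaries were therefore taken after letrozole and the diet had ended, not during them. No group here received letrozole, the diet or mogroside V alone, so the effects of letrozole and of the diet cannot be told apart. Rats entered the model after vaginal smears that stayed in metestrus and diestrus.

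Wnt proteins are secreted, lipid-modified ligands that bind a Frizzled receptor together with the co-receptor Lrp5 or Lrp6. In the canonical arm of the pathway this binding stalls the complex, built on Axin, that marks β-catenin (the product of Ctnnb1) for destruction, and β-catenin then works with TCF/LEF factors in the nucleus. R-spondins, bound to Lgr4, Lgr5 or Lgr6, keep Frizzled receptors on the cell surface, while Sfrp proteins hold ligands back and most Dkk proteins block Lrp5 and Lrp6. In the mammalian ovary, Rspo1 and Wnt4 are known for their part in forming the female gonad, and granulosa and luteal cells of the adult ovary use Wnt signals.

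Levels are given as FPKM, fragments scaled to the length of the transcript and to the mapped fragments of the library, as the authors deposited them. The table holds no counts, but the steps between its lowest values placed the libraries at about 30200000 to 36900000 fragments each. Of the low values used for this, 27.6% to 31.8% lay within 0.02 of a whole number of steps, against 4% by the width of that window, so the depths are approximate. Within groups, log2 levels of library pairs correlated at 0.9538 to 0.9893 across genes, with the lowest value among the Control libraries. Control replicate 3 stood apart by markers of several cell types. The summed FPKM of 7 ovarian surface epithelium markers was 186 there, against 23.9 to 37.6 in the other Control libraries, 6.28 to 43.1 in PCOS and 25.4 to 83.0 in PCOS-MV. The same library was the highest of all 12 for the sums of 6 smooth muscle markers (978, against 341 to 716 in the others) and of 4 adipocyte markers (36.1). The defining ovarian cell types were present, with 8 of 8 granulosa and 8 of 8 oocyte markers above 0 in every library. Markers of other ovarian cells moved with the groups. The summed FPKM of 6 theca and interstitial markers was 156 to 217 in Control, 1759 to 3342 in PCOS and 124 to 234 in PCOS-MV, and 4 of the 6 were called higher and 1 lower in PCOS than in Control. That of 8 granulosa markers was 656 to 915, 1097 to 1557 and 615 to 1124 in the same order, and that of 5 luteal markers was 2972 to 5048, 1156 to 2266 and 2190 to 4592. Of the 8 granulosa markers, 4 were called higher and 0 lower in PCOS than in Control, and 3 had a negative log2 fold change. Of the 5 luteal markers, 1 was called higher (Lhcgr) and 3 lower. The sum of 4 adipocyte markers was 5.27 to 36.1 in Control, 0.691 to 3.85 in PCOS, where Lep and Cidec were listed at 0 in 2 libraries each, and 1.09 to 2.03 in PCOS-MV. In bulk tissue, fewer cells of a type and less RNA per cell cannot be told apart, and the part of these cell types in the Wnt results below was not tested.

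Between the groups, Wnt genes moved in both directions, most of them ligands and Frizzled receptors, which were also most of the Wnt genes tested. In PCOS against Control, the ligand Wnt6 and the receptors Fzd2, Fzd5, Fzd7 and Fzd9 were higher, and Ctnnb1, the ligands Wnt2b and Wnt10b and the receptors Fzd4 and Fzd6 were lower. In PCOS-MV against PCOS, Wnt6, Fzd2 and Fzd9 were lower, and Ctnnb1, Wnt2b, Wnt10b, Lrp5 and Dkk3 were higher. Of the 44 genes, 27 had a mean of at least 1 FPKM over the 12 libraries and were tested with limma on log2(FPKM + 1) among 13430 genes. In PCOS against Control, 5 of the 27 (18.5%) were called higher and 5 (18.5%) lower at an adjusted p under 0.05, where 11.9% of all genes tested were called higher and 15.6% lower. Without Control replicate 1 the number called lower was 8, and without PCOS replicate 2 or PCOS replicate 4 it was 3. The median log2 fold change of the 27 was -0.00294, beside -0.0328 for all genes tested. In PCOS-MV against PCOS, 5 (18.5%) were called higher and 3 (11.1%) lower, where 14.3% of all genes were called higher and 11.4% lower, and the median was 0.045 beside 0.0254. Without PCOS replicate 4 the number higher was 3, and without PCOS replicate 3 the number lower was 5. For all fits with a library left out, calls over all genes are not set beside these counts. The counts are therefore not read as particular to the Wnt genes. Both comparisons use the PCOS libraries, so their opposite directions for the 6 genes called in both (Ctnnb1, Wnt10b, Wnt2b, Wnt6, Fzd2 and Fzd9) are not independent of each other.

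**Figure D1:**
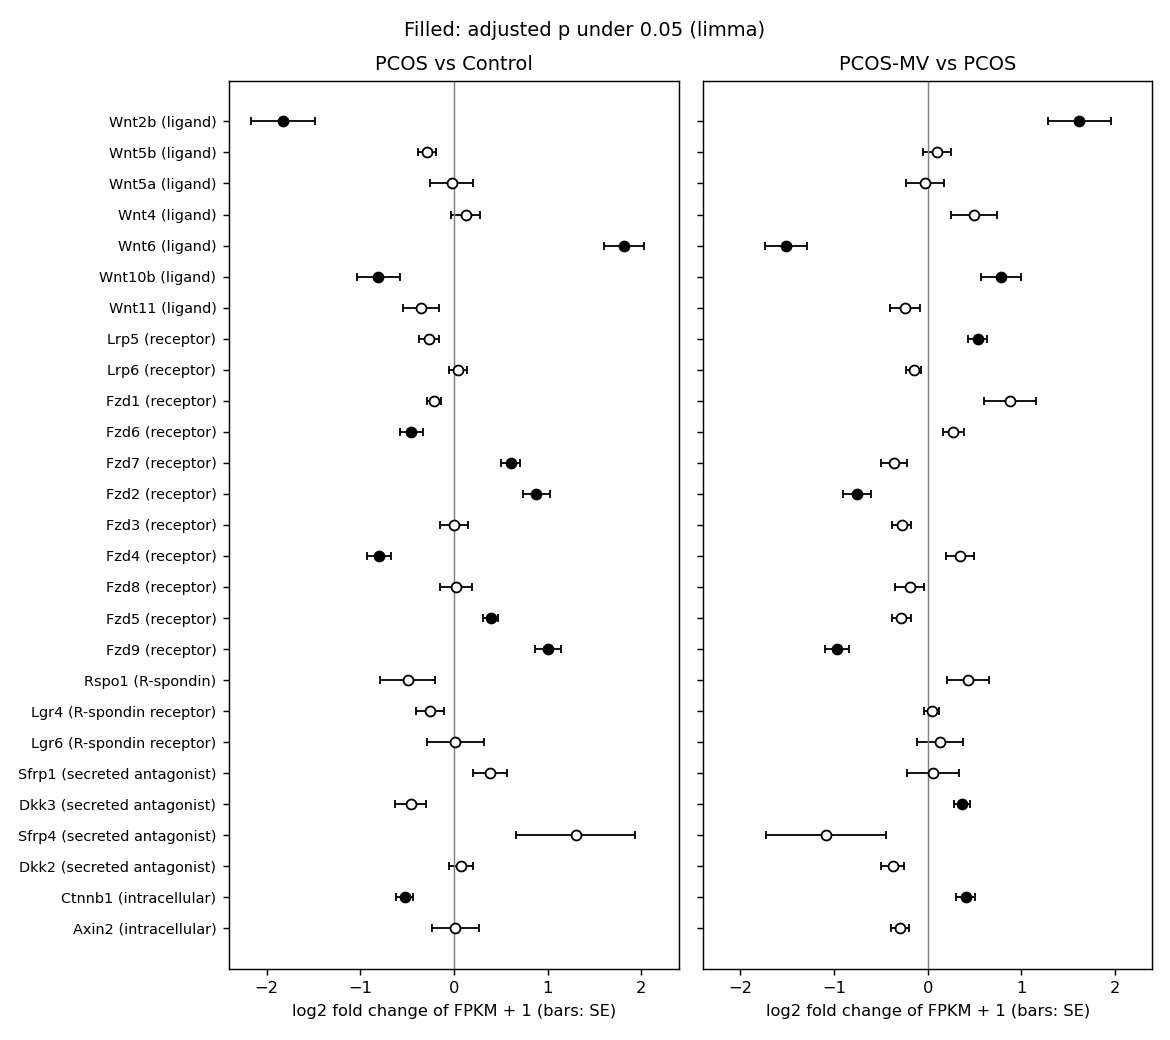
Log2 fold change of FPKM + 1 (horizontal axis, no other unit) for the 27 Wnt genes tested, in PCOS against Control (left) and PCOS-MV against PCOS (right); points are limma estimates, bars are standard errors, and filled points have an adjusted p under 0.05. Wnt6 lies at 1.82 on the left and -1.51 on the right, and Wnt2b at -1.83 and 1.62.

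Ranked by mean level in Control, Ctnnb1 (210.5 FPKM) came first of the 44, followed by Lgr4 (42.6), Wnt2b (36.3), Lrp5 (31.5), Lrp6 (28.0) and Fzd1 (17.1). From Lgr4 to Lrp6, neighbours in this order differed by less than the larger of their standard deviations, which were 2.49 to 15.6 FPKM. FPKM is scaled to transcript length, so these levels can be set side by side only as far as the lengths used are right. In PCOS, Wnt2b went from rank 3 to rank 14, with a mean of 9.27 FPKM, Wnt6 from rank 23 to rank 10 and Sfrp4 from rank 18 to rank 5. In PCOS-MV, Wnt2b was at rank 4 and Wnt6 at rank 22.

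**Figure D2:**
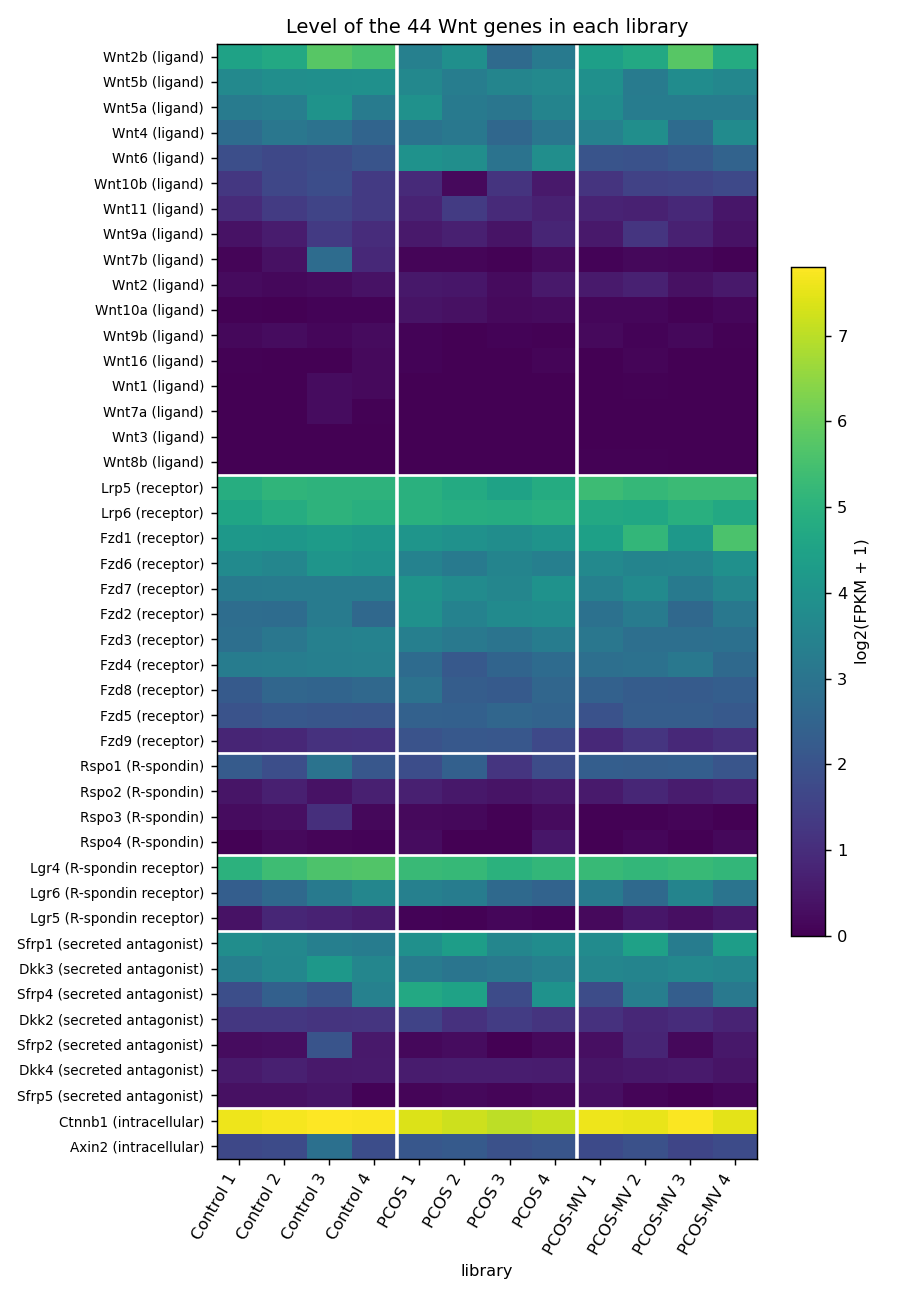
Level of each of the 44 Wnt genes (rows, grouped by role) in each of the 12 libraries (columns), coloured by log2(FPKM + 1) from 0 (dark) upwards. The Wnt6 and Fzd9 rows are brighter in the 4 PCOS libraries than in the other 8, and the Wnt2b row is darker there.

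The sequences just upstream of 4 of these genes are shown, because Wnt6 and Wnt2b had the largest called changes of the 27 and Fzd7 and Axin2 were the members whose promoter holds the letters that TCF/LEF factors bind. They were taken from RefSeq promoters of the build GRCr8, which reach from 250 bases before to 50 after the annotated start, and the 250 bases before the start are printed 5′ to 3′ on the gene's strand. Capitals mark the core CTTTGA or its reverse complement TCAAAG. The 4 stretches are chr9:83778302-83778551 (plus strand), chr2:195156946-195157195 (minus strand), chr9:68425288-68425537 (plus strand) and chr10:94398535-94398784 (plus strand), in the order of the lines.
Wnt6: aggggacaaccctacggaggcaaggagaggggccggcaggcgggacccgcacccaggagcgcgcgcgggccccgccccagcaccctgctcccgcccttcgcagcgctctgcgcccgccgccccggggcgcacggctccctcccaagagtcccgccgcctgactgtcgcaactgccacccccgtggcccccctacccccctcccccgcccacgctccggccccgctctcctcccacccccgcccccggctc
Wnt2b: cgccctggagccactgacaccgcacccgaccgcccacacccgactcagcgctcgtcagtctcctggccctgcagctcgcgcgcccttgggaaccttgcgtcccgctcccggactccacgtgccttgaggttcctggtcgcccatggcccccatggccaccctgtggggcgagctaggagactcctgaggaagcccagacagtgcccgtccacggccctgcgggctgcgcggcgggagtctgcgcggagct
Fzd7: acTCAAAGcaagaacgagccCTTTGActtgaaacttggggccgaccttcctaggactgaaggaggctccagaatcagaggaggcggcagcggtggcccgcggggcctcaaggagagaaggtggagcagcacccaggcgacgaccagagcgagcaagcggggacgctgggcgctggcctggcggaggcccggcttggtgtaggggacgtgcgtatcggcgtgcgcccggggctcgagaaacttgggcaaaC
Axin2: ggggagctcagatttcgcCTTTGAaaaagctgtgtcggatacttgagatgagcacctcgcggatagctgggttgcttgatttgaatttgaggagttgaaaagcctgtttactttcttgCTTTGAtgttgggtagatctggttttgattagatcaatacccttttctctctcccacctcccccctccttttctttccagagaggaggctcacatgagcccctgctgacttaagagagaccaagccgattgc
A promoter entry was found for 28 of the 44 genes. On either strand, the core was in 2 of these 28 windows of 300 bases and in 16.1% of the 33469 promoters of the table. Fzd7 held 3 copies that do not overlap, with first bases at -248, -230 and -1 relative to the start, the last of which begins on the final base printed, and 3 or more copies were in 0.19% of all promoters. Axin2, a gene known as a common target of β-catenin, held 2 copies, at -232 and -132, as 2 or more did in 1.85% of all promoters. The windows of Wnt6 and Wnt2b held none. The members' windows had a median GC content of 65.3%, beside 51.7% for all promoters. A match of letters is a description and does not show that a factor binds.

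Of the 7 ligands tested, Wnt6 was the 1 called higher in PCOS than in Control, and Wnt2b and Wnt10b were called lower. Wnt6 (ENSRNOG00000017409) lies on chromosome 9 from 82033543 to 82047166, plus strand, in the coordinates of the authors' file, whose genome build is not given in the sources used here. It encodes a ligand known from epithelia such as the ureteric bud of the kidney. The 4 Control libraries held 2.66, 2.23, 2.53 and 3.10 FPKM, the 4 PCOS libraries 14.7, 13.6, 6.90 and 13.5, and the 4 PCOS-MV libraries 3.08, 2.91, 3.44 and 4.61. Every PCOS library was above every library of the other groups, and PCOS replicate 3 was lower than the other PCOS libraries. Mean Wnt6 was 4.63-fold higher in PCOS than in Control (log2 fold change 1.82, SE 0.21, limma adjusted p = 0.000429) and 3.47-fold lower in PCOS-MV than in PCOS (-1.51, SE 0.22, limma adjusted p = 0.00208). Both calls were kept with each library left out in turn. An estimated 153 to 994 fragments per library stand behind these values.

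Wnt2b was the ligand with the highest mean in Control and in PCOS-MV, and it fell in PCOS. Wnt2b (ENSRNOG00000014385, chromosome 2 from 207440886 to 207455258, minus strand) encodes a ligand that acts through β-catenin. It was at 21.3, 25.1, 53.6 and 45.2 FPKM in Control, at 9.56, 13.8, 5.44 and 8.29 in PCOS and at 19.96, 25.1, 54.3 and 26.6 in PCOS-MV. The PCOS values lay below all 8 others, among which 3 libraries were well above the rest. The mean was 3.92-fold lower in PCOS than in Control (log2 fold change -1.83, SE 0.34, limma adjusted p = 0.00462) and 3.40-fold higher in PCOS-MV than in PCOS (1.62, SE 0.33, limma adjusted p = 0.00891). With each library left out in turn the adjusted p was at most 0.0164 in the first comparison and at most 0.0284 in the second.

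Wnt10b, another ligand of the canonical arm that is known for holding back fat cell formation, was low throughout. Wnt10b (ENSRNOG00000061238, chromosome 7 from 140448465 to 140454268, minus strand) was at 1.43, 2.15, 2.59 and 1.502 FPKM in Control, 0.924, 0.154, 1.25 and 0.462 in PCOS and 1.23, 1.89, 2.05 and 2.27 in PCOS-MV. The PCOS values were below all Control values, while PCOS replicate 3 overlapped PCOS-MV replicate 1. Its log2 fold change was -0.81 (SE 0.23, limma adjusted p = 0.0323) in PCOS against Control and 0.78 (SE 0.22, limma adjusted p = 0.0301) in PCOS-MV against PCOS. The first call was lost without Control replicate 2, Control replicate 3, PCOS replicate 2 or PCOS replicate 4 (limma adjusted p = 0.0806, 0.0588, 0.0716 and 0.0843), and the second without PCOS replicate 2 or 4 or PCOS-MV replicate 2, 3 or 4 (0.0617, 0.0805, 0.0644, 0.0611 and 0.0724).

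Wnt4, which is needed for the female gonad and for progesterone-producing cells, did not pass the test in any comparison. Wnt4 (ENSRNOG00000013166, chromosome 5 from 155649217 to 155672579, plus strand) was at 5.74, 7.52, 6.62 and 4.70 FPKM in Control, 6.92, 7.76, 5.07 and 7.42 in PCOS and 9.78, 13.3, 5.61 and 12.6 in PCOS-MV. PCOS and Control overlapped, and 3 of the 4 PCOS-MV libraries were above every PCOS library. Its log2 fold change in PCOS-MV against PCOS was 0.49 (SE 0.24, limma adjusted p = 0.171), and without PCOS-MV replicate 3 it was 0.73 (limma adjusted p = 0.0133). Wnt5a, Wnt5b and Wnt11, ligands best known for signals that bypass β-catenin, did not pass the test either. Wnt5a had group means of 10.3, 10.1 and 9.73 FPKM in Control, PCOS and PCOS-MV, and Wnt5b had means of 13.3, 10.7 and 11.7. Wnt11 had means of 1.5, 0.962 and 0.645, and its PCOS-MV values of 0.377 to 0.851 lay below the Control values of 0.932 to 2.05.

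**Figure D3:**
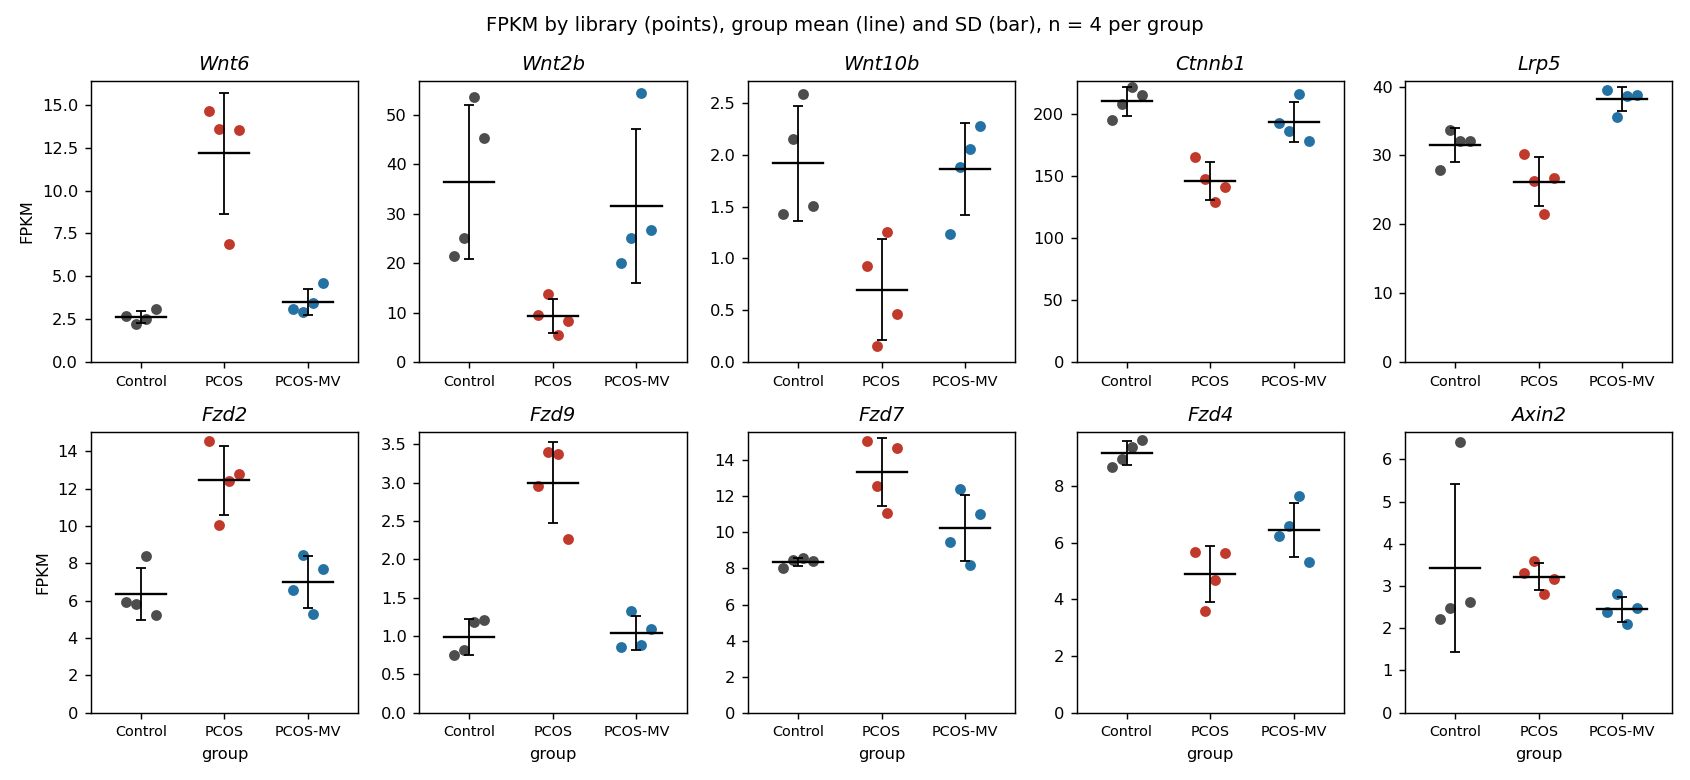
FPKM (vertical axes, each from 0) of 10 Wnt genes, by group; points are libraries, lines are group means and bars are standard deviations, 4 libraries per group. Wnt6, Fzd2 and Fzd9 are highest in PCOS, Wnt2b, Wnt10b and Ctnnb1 are lowest there, and Axin2 has 1 Control library at 6.41.

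The makeup of the ligand pool followed from these changes. Wnt2b gave 40.3% to 55.5% of all Wnt ligand FPKM in the Control libraries, 14.2% to 24.9% in PCOS and 31.7% to 61.1% in PCOS-MV. Wnt6 gave 2.43% to 5.02%, 17.96% to 24.9% and 3.86% to 6.85%. Summed over the 17 ligands, the level was 75.2 ± 22.7 FPKM (SD, n = 4) in Control, 52.0 ± 9.45 in PCOS and 70.7 ± 12.3 in PCOS-MV. Shares within a library sum to 100%, so a lower share of one ligand raises the others. The Frizzled pool held 9 genes, with sums of 71.6 ± 6.36, 75.3 ± 7.36 and 80.5 ± 16.6 FPKM (SD, n = 4). Fzd2 gave 7.06% to 10.6% of it in Control, 14.8% to 17.5% in PCOS and 7.70% to 9.61% in PCOS-MV, and Fzd4 gave 11.8% to 13.3%, 5.25% to 7.24% and 5.34% to 12.1%.

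**Figure D4:**
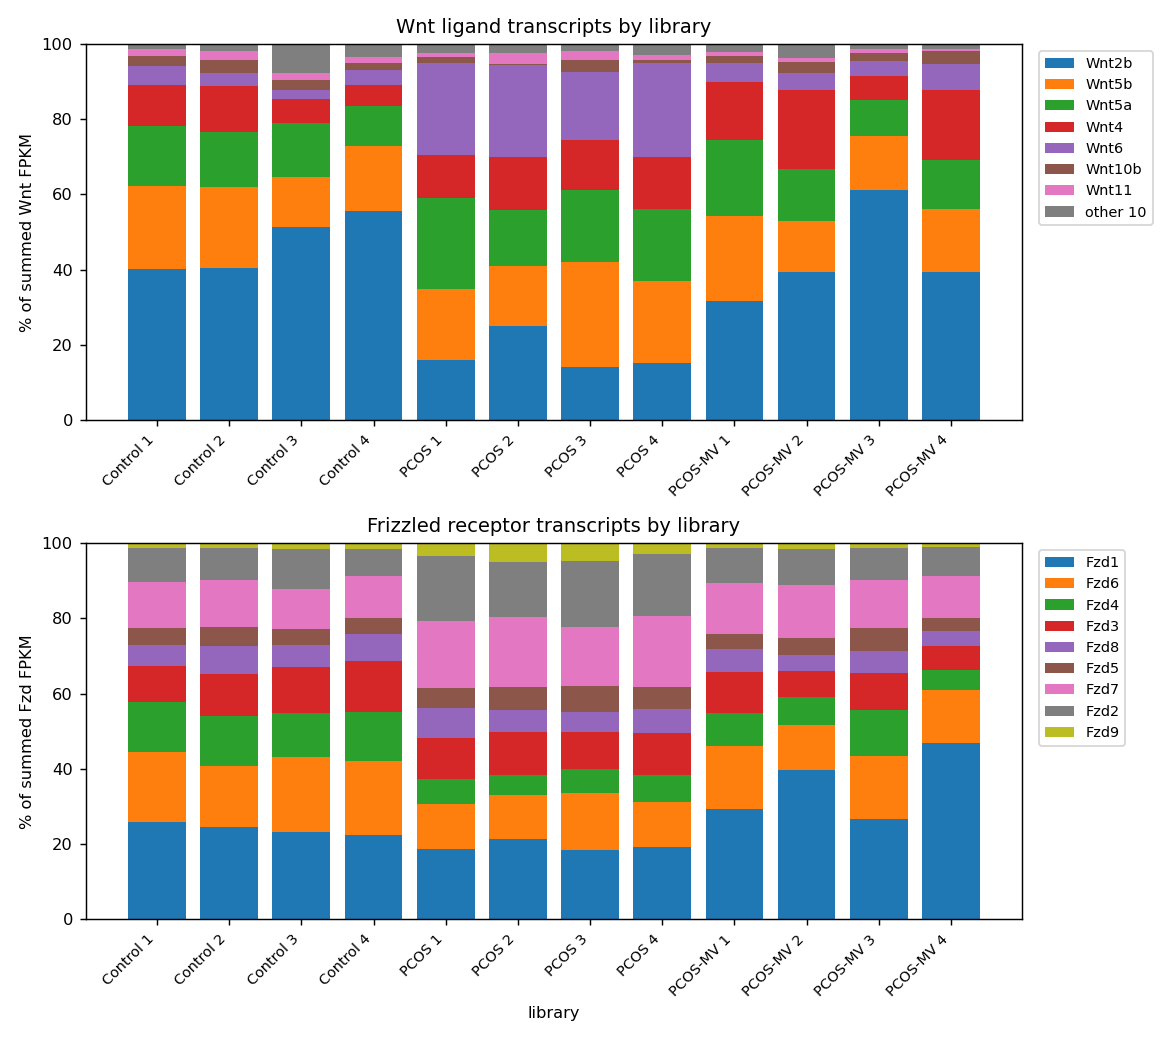
Share of each ligand in the summed Wnt FPKM (top) and of each receptor in the summed Frizzled FPKM (bottom), in percent, for the 12 libraries; each bar is 1 library and sums to 100%. The Wnt2b segment is 14.2% to 24.9% in the PCOS bars and at least 31.7% in the others, the Wnt6 segment is 17.96% to 24.9% in PCOS and at most 6.85% elsewhere, and Fzd1 reaches 39.7% and 46.9% in PCOS-MV 2 and 4.

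All 11 receptors were tested. In PCOS against Control, 4 Frizzled genes rose and 2 fell among 9 (Fzd1 to Fzd9), beside 11.9% higher and 15.6% lower of all genes tested, and neither Lrp gene passed the test. Fzd9 (ENSRNOG00000001452, chromosome 12 from 24473981 to 24476295, plus strand) had the largest rise of the receptors. It was at 0.752, 0.822, 1.18 and 1.20 FPKM in Control, 2.96, 3.40, 3.38 and 2.27 in PCOS and 0.852, 1.33, 0.883 and 1.09 in PCOS-MV. The PCOS values lay above all others, and those of Control and PCOS-MV overlapped. Its mean was 3.03-fold higher in PCOS than in Control (log2 fold change 1.005, SE 0.14, limma adjusted p = 0.00109) and 2.89-fold lower in PCOS-MV than in PCOS (-0.97, SE 0.13, limma adjusted p = 0.00117).

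Fzd2 (ENSRNOG00000021962, chromosome 10 from 90550147 to 90552057, plus strand), a receptor for Wnt5a among other ligands, moved in the same way. Control libraries were at 5.93, 5.79, 8.39 and 5.24 FPKM, PCOS at 14.6, 10.1, 12.4 and 12.8, and PCOS-MV at 6.58, 8.47, 5.26 and 7.69. Again the PCOS values lay above all others. Its log2 fold change was 0.88 (SE 0.15, limma adjusted p = 0.00291) in PCOS against Control and -0.76 (SE 0.15, limma adjusted p = 0.00779) in PCOS-MV against PCOS. Both genes kept both calls with each library left out in turn.

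Fzd7 (ENSRNOG00000016119, chromosome 9 from 66305731 to 66308550, plus strand), whose promoter window holds the TCF/LEF core, rose in PCOS and was at intermediate levels in PCOS-MV. Its values were 8.03, 8.48, 8.55 and 8.39 FPKM in Control, 15.1, 12.6, 11.1 and 14.7 in PCOS and 9.45, 12.4, 8.17 and 11.0 in PCOS-MV. The 4 Control values were close together, and those of PCOS lay above them all. On the log2 scale it rose by 0.61 (SE 0.10, limma adjusted p = 0.00252) in PCOS against Control, and the -0.35 (SE 0.14, limma adjusted p = 0.0974) of PCOS-MV against PCOS did not pass the test. Fzd5 rose from a mean of 3.22 to 4.54 FPKM in PCOS (log2 fold change 0.39, SE 0.08, limma adjusted p = 0.00866) and had a mean of 3.57 in PCOS-MV (limma adjusted p = 0.0728 against PCOS).

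Fzd4 fell in PCOS. Fzd4 (ENSRNOG00000016848, chromosome 1 from 153589471 to 153598375, plus strand) is a receptor known for its work in blood vessels and, in mice, in the corpus luteum. It was at 8.66, 8.97, 9.36 and 9.62 FPKM in Control, 5.67, 3.57, 4.68 and 5.64 in PCOS and 6.24, 6.58, 7.65 and 5.33 in PCOS-MV. All Control values were above all values of the other groups, which overlapped each other. Its log2 fold change was -0.80 (SE 0.12, limma adjusted p = 0.00198) in PCOS against Control, and 0.35 (SE 0.15, limma adjusted p = 0.117) in PCOS-MV against PCOS. The summed FPKM of 4 endothelial markers was 74.9 to 92.7 in Control, 48.4 to 58.9 in PCOS and 66.4 to 89.6 in PCOS-MV, with 3 of the 4 called lower and 1 called higher in PCOS than in Control, and its part in the Fzd4 result was not tested. Fzd6 fell from a mean of 13.4 to 9.49 FPKM in PCOS (log2 fold change -0.46, SE 0.12, limma adjusted p = 0.0268), a call lost without Control replicate 4, PCOS replicate 2 or PCOS replicate 4 (limma adjusted p = 0.0698, 0.0738 and 0.0686).

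Fzd1 was the Frizzled gene with the highest mean in all 3 groups and the most uneven in PCOS-MV, where the libraries held 20.6, 35.0, 17.0 and 46.8 FPKM. Its 4 PCOS values of 13.1 to 15.7 lay below both the Control values of 16.5 to 18.3 and the PCOS-MV values. The log2 fold change in PCOS-MV against PCOS was 0.88 (SE 0.28, limma adjusted p = 0.0503), just outside the threshold. It was called in 6 of 7 other settings, with 0.0213 as the lowest adjusted p (1 limma model for all 12 libraries), and in 2 of 8 fits with a library left out, those without PCOS-MV replicate 1 or 3 (limma adjusted p = 0.0430 and 0.0144). Fzd3 and Fzd8 did not pass the test in either comparison, with group means between 3.98 and 8.33 FPKM.

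Lrp5 (ENSRNOG00000015911, chromosome 1 from 218816841 to 218920094, minus strand), one of the paired co-receptors, was higher in PCOS-MV. It was at 27.9, 33.7, 32.1 and 32.2 FPKM in Control, 30.2, 26.3, 21.5 and 26.7 in PCOS and 39.5, 35.6, 38.7 and 38.8 in PCOS-MV. The PCOS-MV values were above all others, and the values of PCOS and Control overlapped. Lrp5 had a log2 fold change of 0.53 (SE 0.10, limma adjusted p = 0.00629) in PCOS-MV against PCOS and -0.26 (SE 0.11, limma adjusted p = 0.105) in PCOS against Control. Against Control, PCOS-MV did not pass the test (0.27, SE 0.08, limma adjusted p = 0.497). Lrp6, its partner in the family, had means of 28.0, 28.7 and 25.8 FPKM and passed no test.

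Of the R-spondins only Rspo1 was expressed above the filter, and it passed no test. Rspo1 (ENSRNOG00000009656, chromosome 5 from 142986526 to 143007831, plus strand), which drives ovarian fate in the embryonic gonad, was at 3.75, 2.68, 6.89 and 3.38 FPKM in Control, 2.58, 4.30, 1.29 and 2.55 in PCOS and 4.02, 3.94, 3.98 and 3.17 in PCOS-MV. The 3 groups overlapped. The log2 fold change was -0.49 (SE 0.29, limma adjusted p = 0.25) in PCOS against Control and 0.44 (SE 0.22, limma adjusted p = 0.188) in PCOS-MV against PCOS, where leaving out PCOS replicate 2 gave 0.63 (limma adjusted p = 0.0453). The R-spondin receptors Lgr4, with group means of 42.6, 35.1 and 36.2 FPKM, and Lgr6, with means of 7.10, 7.03 and 7.72, passed no test.

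Among the secreted antagonists, 4 of 7 were tested. Dkk3, a family member that does not block Lrp5 and Lrp6 as the others do, had means of 12.1, 8.30 and 10.9 FPKM in Control, PCOS and PCOS-MV. It rose in PCOS-MV against PCOS (log2 fold change 0.36, SE 0.09, limma adjusted p = 0.0161), a call that did not hold when all 12 libraries were fitted in 1 model (limma adjusted p = 0.0866). Sfrp4 had the widest spread of the antagonists, with 2.71, 4.29, 3.04 and 9.74 FPKM in Control, 25.1, 21.4, 2.42 and 14.6 in PCOS and 2.49, 9.12, 4.00 and 7.88 in PCOS-MV. In PCOS, 3 of the 4 libraries were above all others, and PCOS replicate 3 was the lowest of all 12. Its log2 fold change of 1.301 (SE 0.63) did not pass the test in PCOS against Control (limma adjusted p = 0.164), nor did -1.08 (SE 0.64) in PCOS-MV against PCOS (0.251). Without PCOS replicate 3 the values were 1.95 (limma adjusted p = 0.00961) and -1.73 (0.0206). Sfrp1, with means of 10.6, 14.3 and 15.4 FPKM, and Dkk2, with means of 1.35, 1.49 and 0.917, did not pass the test, although all PCOS-MV values of Dkk2 (0.715 to 1.16) lay below all PCOS values (1.17 to 1.94).

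Inside the cell, Ctnnb1 fell in PCOS, and Axin2 passed no test. Ctnnb1 (ENSRNOG00000054172, chromosome 8 from 129617812 to 129627372, plus strand) encodes β-catenin, which also joins cadherins at cell contacts. It was at 196, 208, 222 and 216 FPKM in Control, 166, 148, 129.6 and 141 in PCOS and 193, 187, 216 and 178 in PCOS-MV. All PCOS values were below all others, and PCOS-MV overlapped Control. The mean was 1.44-fold lower in PCOS than in Control (log2 fold change -0.53, SE 0.09, limma adjusted p = 0.00321) and 1.32-fold higher in PCOS-MV than in PCOS (0.41, SE 0.10, limma adjusted p = 0.0178). The second call was lost without PCOS replicate 4 (limma adjusted p = 0.0533).

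Axin2 (ENSRNOG00000055010, chromosome 10 from 97212432 to 97239642, plus strand) encodes a scaffold of the destruction complex and is widely read as a measure of canonical Wnt activity. It was at 2.23, 2.48, 6.41 and 2.62 FPKM in Control, 3.31, 3.58, 2.81 and 3.17 in PCOS and 2.39, 2.82, 2.11 and 2.47 in PCOS-MV. The PCOS values were above 3 of the 4 Control libraries, and Control replicate 3, the library with high epithelial markers, was above them all. The log2 fold change was 0.02 (SE 0.25, limma adjusted p = 0.97) in PCOS against Control, with 0.29 (limma adjusted p = 0.0608) without Control replicate 3 and -0.11 (0.791) without Control replicate 1. In PCOS-MV against PCOS it was -0.29 (SE 0.10, limma adjusted p = 0.0551), with PCOS replicate 3 and PCOS-MV replicate 2 overlapping. There Axin2 was called in 1 of 8 fits with a library left out, the one without PCOS-MV replicate 2 (limma adjusted p = 0.0473). It was also called in 1 of 7 other settings, the rescaling (-0.31, limma adjusted p = 0.0333). In the rest of those settings it was not called, with limma adjusted p up to 0.369. A lower mRNA level of Ctnnb1 says nothing of the amount or place of the protein, which these libraries do not measure.

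Between PCOS-MV and Control, 0 of the 27 genes tested were called in either direction (limma), where 0.00745% of all 13430 genes were called, which is 1 gene. At an unadjusted p under 0.05 there were 6 of the 27, and 1142 of all genes. The lowest adjusted p of the members was 0.457, for Fzd4, whose PCOS-MV values lay below all Control values (log2 fold change -0.45, SE 0.10). Fold changes of the 27 ran from -0.59 (Wnt11) to 0.66 (Fzd1). Groups did not overlap for 4 of the 27 (Fzd4, Wnt11, Lrp5 and Dkk2), where 5.1% of all genes tested had groups that did not overlap. Such groups give 0.0286, the smallest p of an exact two-sided permutation test of 4 libraries against 4.

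The other 17 genes had a mean below 1 FPKM and were left out of the main test, so they are given by their values. In PCOS against Control, 3 of the 17 had groups that did not overlap (Lgr5, Wnt10a and Wnt9b), where 12.9% of the 6300 genes above 0 and below 1 FPKM did the same. In PCOS-MV against PCOS there were 4 (Lgr5, Wnt1, Wnt10a and Dkk4), where the share of such genes was 11.0%. In PCOS-MV against Control there was 1, Rspo3, which was lower in PCOS-MV, where the share was 4.56%. They are named because the counts are small, after their values were seen.

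Lgr5 (ENSRNOG00000004221, chromosome 7 from 58448277 to 58587787, minus strand) marks stem cells in several epithelia, the ovarian surface among them. It was at 0.301, 0.802, 0.666 and 0.516 FPKM in Control, 0.0609, 0.0273, 0.0968 and 0.0534 in PCOS and 0.147, 0.393, 0.248 and 0.410 in PCOS-MV. PCOS values were below all others, with about 3.0 to 9.2 fragments per library against 15.5 to 84.2 in the other groups. In the fit with no filter on low values, Lgr5 was called lower in PCOS than in Control (-0.56, SE 0.09, limma adjusted p = 0.00655) and higher in PCOS-MV than in PCOS (0.29, SE 0.07, limma adjusted p = 0.0258).

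Wnt10a (ENSRNOG00000052510) lies 6.4 kb downstream of Wnt6 on the same strand of chromosome 9, and its values were highest in the same group. It was at 0.0247, 0.0121, 0.0445 and 0.0604 FPKM in Control, 0.316, 0.284, 0.146 and 0.175 in PCOS and 0.0954, 0.107, 0.0220 and 0.109 in PCOS-MV, with all PCOS values above all others. With no filter it was called higher in PCOS than in Control (0.25, SE 0.05, limma adjusted p = 0.0108) and lower in PCOS-MV than in PCOS (-0.18, SE 0.05, limma adjusted p = 0.0493). An estimated 1.0 to 24.8 fragments per library were behind it. Wnt1 is 10.7 kb from Wnt10b on chromosome 7, on the opposite strand, and was listed at 0 in all 4 PCOS libraries and in 2 Control libraries, at 0.192 and 0.152 FPKM in the other Control libraries, and at 0.0115 to 0.0371 in PCOS-MV, which is about 0.98 to 2.98 fragments. Wnt9b was at 0.0908 to 0.194 FPKM in Control and at 0.0124 to 0.0535 in PCOS, with PCOS-MV values of 0.0247 to 0.158 that overlapped both, and with no filter it was called lower in PCOS than in Control (-0.14, SE 0.03, limma adjusted p = 0.0152). Wnt3, 22.7 kb from Wnt9b on chromosome 10, was at no more than 0.0204 FPKM in any library.

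Several low members had their highest value in Control replicate 3, the library with the high epithelial, smooth muscle and adipocyte markers. Wnt7b was at 5.78 FPKM there and at 0.0793, 0.262 and 0.876 in the other Control libraries, against 0.0389 to 0.167 in PCOS and 0.0338 to 0.123 in PCOS-MV. Sfrp2 was at 3.06 there and at 0.202 to 0.458 in the others of that group, Rspo3 was at 1.06 against 0.120 to 0.246 (0.0370 to 0.173 in PCOS and 0.0183 to 0.0881 in PCOS-MV), and Wnt7a was at 0.197 against 0 to 0.0287. In the same library the epithelial markers Pax8 and Epcam were at 10.7 and 32.3 FPKM, against 0.460 to 0.870 and 1.20 to 2.90 in the other Control libraries. They belong to a list of 4 oviduct epithelium markers, of which Cdh1 was at 37.9 FPKM in that library, 3.55 to 5.497 in the other Control libraries, 23.2 to 88.4 in PCOS, where it was called higher (limma adjusted p = 0.0359), and 2.03 to 24.9 in PCOS-MV. The sum of that list was 85.2 in Control replicate 3 and 91.5 in PCOS replicate 1. The part of these cells in the values of Wnt7b, Sfrp2, Rspo3 and Wnt7a was not tested. Wnt8b was listed at 0 in 10 of the 12 libraries and reached 0.0404. The remaining low members, Wnt2, Wnt9a, Wnt16, Rspo2, Rspo4, Dkk4 and Sfrp5, were between 0 and 1.49 FPKM. Among them Dkk4 was at 0.502 to 0.533 FPKM in PCOS and at 0.332 to 0.470 in PCOS-MV, a difference called in the fit with no filter (-0.12, SE 0.03, limma adjusted p = 0.0390).

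**Figure D5:**
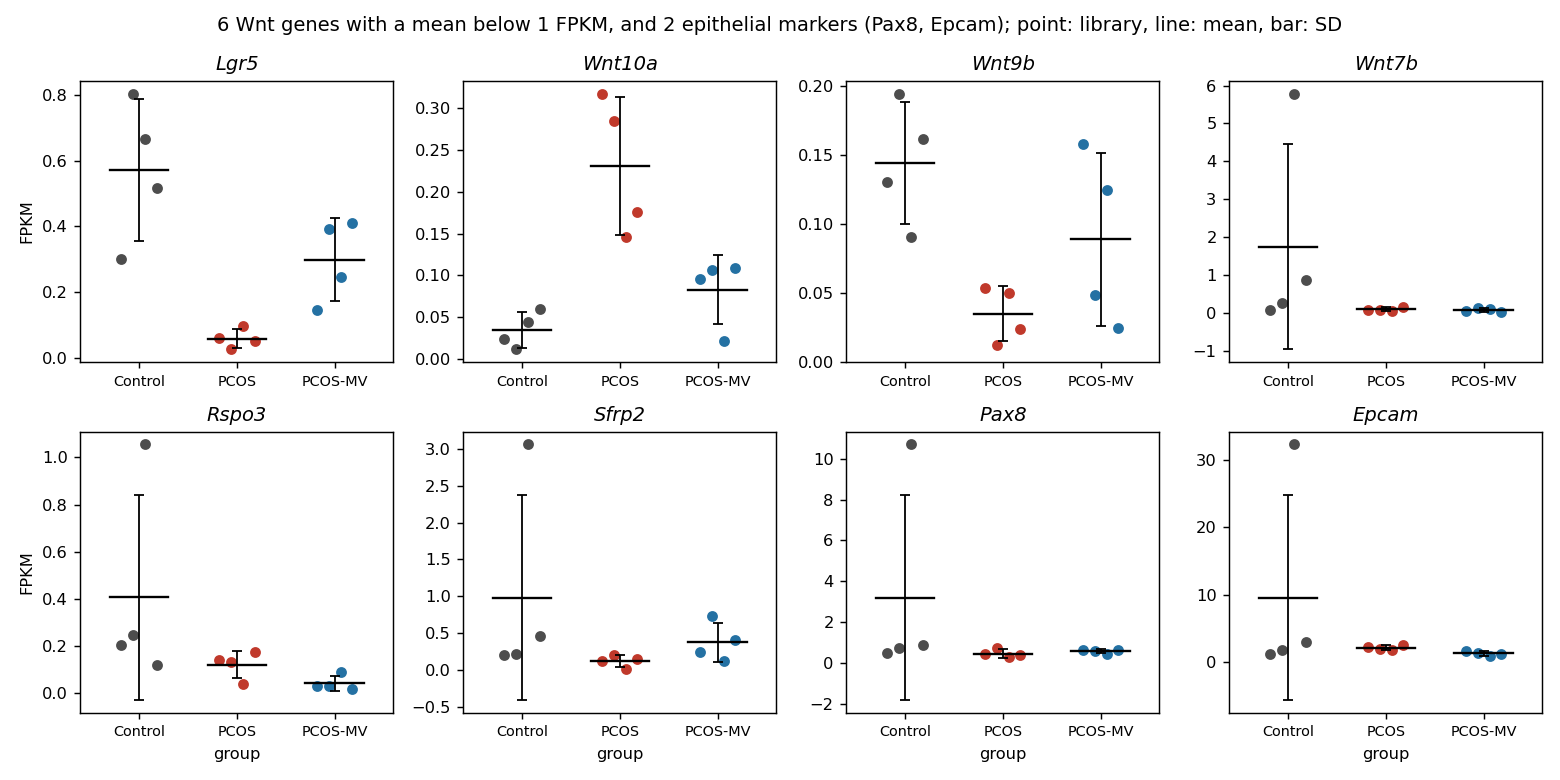
FPKM (vertical axes, linear) of 6 Wnt genes with a mean below 1 FPKM and of the epithelial markers Pax8 and Epcam in the 3 groups; points are libraries, lines are means and bars are standard deviations, 4 libraries per group. Lgr5 is lowest and Wnt10a highest in PCOS, while Wnt7b, Rspo3, Sfrp2, Pax8 and Epcam each have 1 high point, Control replicate 3.

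The rest of the pathway was read from a list of 58 other genes in the table, of which 50 were tested. In PCOS against Control, 5 of the 50 were called higher and 11 lower, beside 11.9% and 15.6% of all genes tested, and in PCOS-MV against PCOS 7 were called higher and 3 lower, beside 14.3% and 11.4%. The list was written with earlier results of these data known, so these counts are a description. Of 8 other receptors tested, Ror1 was called higher and Ryk lower in PCOS against Control. Among 12 nuclear members (TCF/LEF factors and their partners) the single call of these comparisons was the co-repressor Tle2, lower in PCOS-MV than in PCOS (log2 fold change -0.60, SE 0.18, limma adjusted p = 0.0436). Of 8 target genes tested, 1 was higher (Nkd1) and 4 were lower (Nkd2, Myc, Ccnd1 and Fst) in PCOS against Control, and 3 were higher (Nkd2, Fst and Cd44) in PCOS-MV against PCOS. These genes are named because the counts are small, after their values were seen, and the target genes answer to other pathways too.

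Called in both comparisons were 8 of these genes, each in opposite directions. Cthrc1, a secreted protein that steers Wnt towards the planar polarity branch, was at 1.38 to 2.77 FPKM in Control, 0.181 to 0.427 in PCOS and 2.98, 11.0, 2.79 and 18.1 in PCOS-MV, so that all PCOS-MV values exceeded all others. Its log2 fold change was -1.23 (SE 0.17, limma adjusted p = 0.000959) and then 2.58 (SE 0.50, limma adjusted p = 0.00697). Apcdd1, an inhibitor that binds Wnt and Lrp proteins, went the other way, at 8.57 to 15.2 FPKM in Control, 22.2 to 33.1 in PCOS and 8.76 to 10.7 in PCOS-MV (1.18, SE 0.19, limma adjusted p = 0.00217, then -1.33, SE 0.13, limma adjusted p = 0.000336). Fst, which encodes the activin-binding protein follistatin, had means of 39.0, 22.7 and 42.7 FPKM, and the modulators Dact2 and Nkd2, Dvl1 and Btrc, whose protein recognises marked β-catenin, were likewise lower in PCOS than in Control and higher in PCOS-MV than in PCOS. Of the Dishevelled genes, which carry the signal from Frizzled to the destruction complex, Dvl1 and Dvl2 moved apart. Dvl3 had means of 13.85, 14.83 and 14.39 FPKM in Control, PCOS and PCOS-MV and passed no test. Dvl1 was at 16.6 to 17.6 FPKM in Control, 10.3 to 13.9 in PCOS and 15.2 to 20.1 in PCOS-MV, whereas Dvl2 was at 9.18 to 10.6, 11.9 to 14.6 and 9.53 to 9.96. Of the 16 calls of these 8 genes, those of Dact2 were lost in both comparisons, that of Dvl2 in the first and that of Nkd2 in the second when single libraries were left out, with the highest adjusted p at 0.0957 (limma). With 1 model for all 12 libraries the first call of Cthrc1 was lost (limma adjusted p = 0.0572), and 4 of the 8 genes in PCOS against Control and 6 of the 8 in PCOS-MV against PCOS were called in every setting and with each library left out.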

How the data were processed

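Ovaries of 12 rats were sequenced, 1 library per rat, and the labels gave 4 rats to every group. The methods name total RNA, NEBNext Ultra libraries and paired-end Illumina reads, and do not state whether strand was kept. The authors deposited FPKM values, 1 per gene repeated over 26928 transcript lines for 19730 genes. They removed reads with adapters, unknown bases or low quality, and, per the methods, aligned with HISAT2, counted with featureCounts and scaled to FPKM, while the submitters' processing notes name STAR 2.5.1b and HTSeq 0.6.0. The genome build is not given in the sources used here. Counts were not analysed here, so a count test was not run. The authors' columns of log2 fold changes and p-values were not used.

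Each comparison was fitted with limma 3.58.1 (R 4.3.3; lmFit, eBayes with a trend) on log2(FPKM + 1) with 2 groups in the fit, over the 13430 genes whose values averaged 1 FPKM or more across all 12 libraries. A fold change on this scale understates that of low genes. P-values were adjusted over all genes tested by the Benjamini-Hochberg method, with a threshold of 0.05. The fit was also run on simulated data with known changes and independent noise. That run checks the code and cannot vouch for the calls reported here. Depth was estimated from the step between low values (tolerance 0.02 of a step), which did not give whole reads for most values. Fragment numbers are therefore approximate and cover counting error only. Tables and plots were made with Python 3.11.15, pandas 2.3.3 and matplotlib 3.10.9.

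The members are all genes that match the names given at the start, and the names and lists were set with earlier results of these data known. All 44 members are accounted for. Values in every library are given for members called in PCOS against Control or PCOS-MV against PCOS with an absolute log2 fold change of at least 0.5, for Ctnnb1, Axin2, Wnt4 and Rspo1, and for others singled out after their values were seen. Other pathway genes are named where called in both comparisons, up to 8, and 7 more are named to spell out small counts. Alternatives were other pseudocounts, filters, a rescaling, 1 model for all libraries, a replicate block and leaving out each library. Promoters came from RefSeq (GRCr8) and were matched by symbol.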

Additional observations from a re-analysis of the deposited data

Results flagged for a closer look

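In 6 of 81 groups of 4 libraries, 1 library stood far from the other 3, with a gap to its nearest neighbour that took up more of the group's range than Dixon's critical value for 4 values, where chance gives about 4.0 at 1 in 20. For Wnt6, PCOS replicate 3 was the lowest of its group at 6.898 FPKM, against 13.52 to 14.66 in the others, and it was still above all Control and PCOS-MV libraries. For Axin2, Control replicate 3 was the highest at 6.41 FPKM, against 2.228 to 2.617. The same library was the highest for Wnt5a at 14.95 FPKM, against 8.442 to 9.161. Wnt5a also had a high library in PCOS-MV, replicate 1 at 12.75 FPKM, against 8.641 to 8.791. For Rspo1, PCOS-MV replicate 4 was the lowest at 3.174 FPKM, against 3.939 to 4.02. For Fzd3, PCOS-MV replicate 1 was the highest at 7.577 FPKM, against 6.188 to 6.383.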

How the results depend on the processing

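Of the 10 members called in PCOS against Control, 8 were called in every setting tried and with each library left out in turn, the exceptions being Wnt10b and Fzd6. Of the 8 called in PCOS-MV against PCOS, 5 were, the exceptions being Ctnnb1, Wnt10b and Dkk3. The number called lower in PCOS than in Control was 5. It was 3 to 8 with 1 library left out, and 3 with Control replicates 1 and 3 left out, a setting chosen after seeing the data. The number called lower in PCOS-MV than in PCOS was 3. It was 5 with no filter on low values, where Wnt10a and Dkk4, which the main fit did not test, were called lower too. It was 5 with 1 model for all 12 libraries and 3 to 5 with 1 library left out. The number called higher there was 5, with 3 to 6 when 1 library was left out. Smaller numbers of libraries enter the leave-one-out fits, more genes enter the fit with no filter, and otherwise the cause was not tested. Calls over all genes are given below for the replicate block only, so these counts are not read as particular to the Wnt genes. Axin2 changed sign in PCOS against Control, from 0.02 to between -0.107 and 0.293 on the log2 scale (-0.107, -0.0710, -0.0521 and -0.0249 without Control replicates 1, 2 and 4 and PCOS replicate 2). Wnt2b in PCOS-MV against Control ranged from -0.494 to 0.0119, the latter without Control replicate 3. With the replicate block the calls were 5 higher and 5 lower, 6 and 4, and 0 and 0 in the order PCOS against Control, PCOS-MV against PCOS and PCOS-MV against Control. Over all genes the block gave 2905, 3079 and 0 calls, against 3684, 3448 and 1. Deviations of same-numbered libraries correlated at -0.033 to 0.024, 0.035 to 0.172 and -0.053 to 0.216, and not every library correlated best with its own number, so the numbers were not taken to pair the rats, although 3 of the 4 pairs were above 0.1 in PCOS-MV against PCOS. There the block ended the call of Wnt10b (limma adjusted p = 0.0512) and added Wnt4 (0.0392) and Fzd1 (0.0468) to those called higher. The number called lower went from 3 to 4, and the added gene is not named here. In PCOS against Control the block ended the calls of the other pathway genes Nkd2 and Dvl2 (limma adjusted p = 0.0520 and 0.0831). Fzd1 in PCOS-MV against PCOS was also called under pseudocounts of 0.1 and 0.5, another filter, a rescaling and 1 model for all libraries (limma adjusted p from 0.0213 to 0.0496). At about 30200000 to 36900000 fragments a library, genes such as Wnt1 and Wnt10a rest on few fragments.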

Other observations

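Several genes were uneven within PCOS-MV in a like way, a pattern noticed after the values were seen. In replicates 1 to 4, Fzd1 was at 20.6, 35.0, 17.0 and 46.8 FPKM. The ligand Wnt4 was at 9.78, 13.3, 5.61 and 12.6 FPKM, and the ligand-binding antagonist Sfrp1 at 12.7, 20.9, 8.70 and 19.5. The modulator Cthrc1 was at 2.98, 11.0, 2.79 and 18.1 FPKM, and Sfrp4 at 2.49, 9.12, 4.00 and 7.88. Each of these was higher in replicates 2 and 4 than in 1 and 3. They are examples, since other members such as Axin2, Fzd2 and Fzd7 were split the same way. Still others, such as Ctnnb1, Lgr6 and Lrp6, were lower in replicates 2 and 4 than in 1 and 3. The summed FPKM of 5 luteal markers was 4297, 2207, 4592 and 2190 in replicates 1 to 4, and that of 7 surface epithelium markers was 34.7, 83.0, 25.4 and 39.1. That of 6 theca and interstitial markers was 234, 123.5, 171 and 152, and that of 4 oviduct epithelium markers was 10.5, 5.60, 26.5 and 4.46. No other marker sum split replicates 1 and 3 from 2 and 4, that of 8 granulosa markers being 814.5, 839, 1124 and 615. Within the luteal list, Ptgfr was at 50.3, 60.2, 173 and 81.5 FPKM. The part of these cells in the values of the uneven genes was not tested, and no comparison between these libraries was made.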
